A study of Mus musculus with 4 samples.

Results

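The genes described here make cholesterol or control its making. They were chosen by symbol and not by a cut on measured values, but with earlier results of these data known. The choice took all probe sets whose gene symbol in the array annotation is Hmgcs1, Sqle, Fdps, Fdft1, Cyp51, Idi1, Insig1 or Srebf2. Of these 8 symbols 7 had a probe set, 18 probe sets in all among the 22690 on each array, and Insig1 is not analysed here because no row of that annotation carries its symbol. By their known functions 6 of the 7 measured genes encode synthesis enzymes and Srebf2 a transcription factor, so none of the 7 encodes an uptake receptor. Among all 12393 genes measured they were compared with other genes of the same and neighbouring pathways.

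Cholesterol is built from acetyl-CoA units through mevalonate, isoprenoid diphosphates, squalene and lanosterol. Transcription of these enzymes is driven by SREBP-2, the product of Srebf2, which is released from its membrane precursor when sterols in the endoplasmic reticulum run low and is held back by the Insig proteins and SCAP when they are plentiful. Macrophages also obtain cholesterol by engulfing cells and lipoproteins, and supply from outside is known to lower the expression of the synthesis enzymes.

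Expression was measured in mouse mammary macrophages on 4 arrays, 1 for each group. The mice of all groups expressed the yellow fluorescent protein YFP in macrophages, which were sorted by it. The first group, called remodeling Ets2-expressing, is labelled wild type and came from remodeling mammary glands without tumor. The second, remodeling Ets2-deficient, came from such glands with 2 copies of Ets2 deleted. The third, tumor Ets2-expressing, came from early-stage mammary tumors induced by PyMT, the polyoma middle T oncogene, and is wild type by its title but carries 1 copy of Ets2 by its source label. The fourth, tumor Ets2-deficient, came from early-stage PyMT tumors with 2 copies deleted. What drove YFP and the deletion, the deleted exons, the age of the mice and the number of animals behind each RNA sample are not given in the sources used here. The comparison of interest is between macrophages with and without Ets2, a transcription factor of the ETS family, in tumors and in remodeling glands.

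Each group was a lone array, so the differences have no replicate check and were given no test or p-value. "Higher" and "lower" therefore describe these arrays, and the number of arrays limits the precision. A gene was called in a comparison when it differed at least 2-fold and its brighter array lay at or above the median of all probe sets on that array (6.17, 5.98, 6.22 and 6.30 log2 in the order of groups above). The only error at hand was the scatter among bright probe sets that name a single gene, given as the pooled standard deviation (SD) of their differences, 0.34 log2 for the tumor Ets2 comparison, 0.28 for the remodeling Ets2 comparison, and 0.41 and 0.32 for tumor against remodeling on the Ets2-expressing and the Ets2-deficient arrays. The single Ets2 probe set read 13.24, 12.97, 12.77 and 12.67, bright on the arrays labelled deficient too, and does not check the labels if it lies outside the deleted part. All 12 macrophage markers listed were bright on every array. For the Actb control probe sets the 3' end exceeded the 5' end, a measure of RNA or amplification length, by 2.72, 2.96, 3.30 and 3.54 log2, and for Gapdh by 1.61, 1.80, 2.45 and 2.27, both more on the tumor arrays. For Tfrc, the third such control, the order was the other way, with 5.75, 5.96, 5.03 and 5.27.

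Promoter sequences are shown for the 4 measured genes that the RefSeq promoter table (GRCm38.p6) holds, so that motifs of the factors known to control this pathway can be looked for. Each line gives the 250 bases before the start of the gene, 5′ to 3′ on the strand of the gene. Capitals mark a match to any of 4 motifs on either strand: the sterol regulatory element TCACNCCAC bound by SREBP proteins, the NF-Y box CCAAT, the Sp1 box GGGCGG and the ETS core CCGGAA. Positions are chr13:119690101-119690350, plus strand for Hmgcs1, chr5:4104698-4104947, minus strand for Cyp51, chr13:8885356-8885605, plus strand for Idi1 and chr15:82147019-82147268, plus strand for Srebf2.
Hmgcs1: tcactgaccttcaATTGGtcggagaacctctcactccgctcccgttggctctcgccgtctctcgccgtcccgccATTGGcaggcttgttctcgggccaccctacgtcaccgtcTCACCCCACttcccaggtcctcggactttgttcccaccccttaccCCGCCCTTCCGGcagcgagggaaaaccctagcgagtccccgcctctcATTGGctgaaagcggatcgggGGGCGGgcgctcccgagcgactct
Cyp51: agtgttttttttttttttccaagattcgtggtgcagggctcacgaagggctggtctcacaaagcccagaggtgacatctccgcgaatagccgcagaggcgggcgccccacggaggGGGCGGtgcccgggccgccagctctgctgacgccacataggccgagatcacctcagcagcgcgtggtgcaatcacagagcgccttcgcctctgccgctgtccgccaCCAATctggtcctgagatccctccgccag
Idi1: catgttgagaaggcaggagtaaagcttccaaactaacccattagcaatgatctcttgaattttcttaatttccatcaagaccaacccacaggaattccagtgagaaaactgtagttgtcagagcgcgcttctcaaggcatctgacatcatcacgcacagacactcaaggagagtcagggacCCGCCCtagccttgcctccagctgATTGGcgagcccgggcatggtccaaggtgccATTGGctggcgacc
Srebf2: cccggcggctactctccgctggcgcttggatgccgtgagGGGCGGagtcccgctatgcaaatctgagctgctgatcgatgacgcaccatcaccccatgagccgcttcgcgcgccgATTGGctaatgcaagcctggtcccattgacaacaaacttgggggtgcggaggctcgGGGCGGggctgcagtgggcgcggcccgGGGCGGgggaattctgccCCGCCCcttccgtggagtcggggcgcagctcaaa

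The Hmgcs1 window held all 4 motifs. Its sterol regulatory element, TCACCCCAC, lay 137 to 129 bases before the start, and its ETS core, TTCCGG on this strand, lay 86 to 81 bases before the start, next to an Sp1 box. The Cyp51, Idi1 and Srebf2 windows held NF-Y and Sp1 boxes without a match to the other pair of motifs. No match overlapped a match to another motif in these windows. Among 32817 such windows of the table, 1.05% held TCACNCCAC, 33.8% CCAAT, 32.7% GGGCGG and 12.0% CCGGAA. These matches are descriptions of letters and not measured sites.

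None of the 5 bright genes among the 7 reached 2-fold between the arrays labelled Ets2-expressing and Ets2-deficient, and 1, Fdft1, did so between tumor and remodeling macrophages. Dim Fdps read 1.16 log2 higher on the tumor Ets2-deficient than on the tumor Ets2-expressing array, in 1 of its 2 probe sets. Fdft1, which encodes squalene synthase, was higher in tumor macrophages by 1.35 log2 with Ets2 expressed and by 1.10 with Ets2 deficient. Idi1 and Cyp51 were also higher there, by 0.53 to 0.87 log2. The brightest probe sets of Hmgcs1 and Srebf2 differed by at most 0.40 log2 as deposited in any of the 4 comparisons made here, while others of Hmgcs1 reached -0.66 and 0.50. Of the 18 probe sets, 11 were at or above the array median on all 4 arrays and 7 were below it on all 4, which include both probe sets of Fdps and the single probe set of Sqle. In sorted cells measured in bulk, fewer cells of a type and less RNA per cell cannot be told apart.

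**Figure D1:**
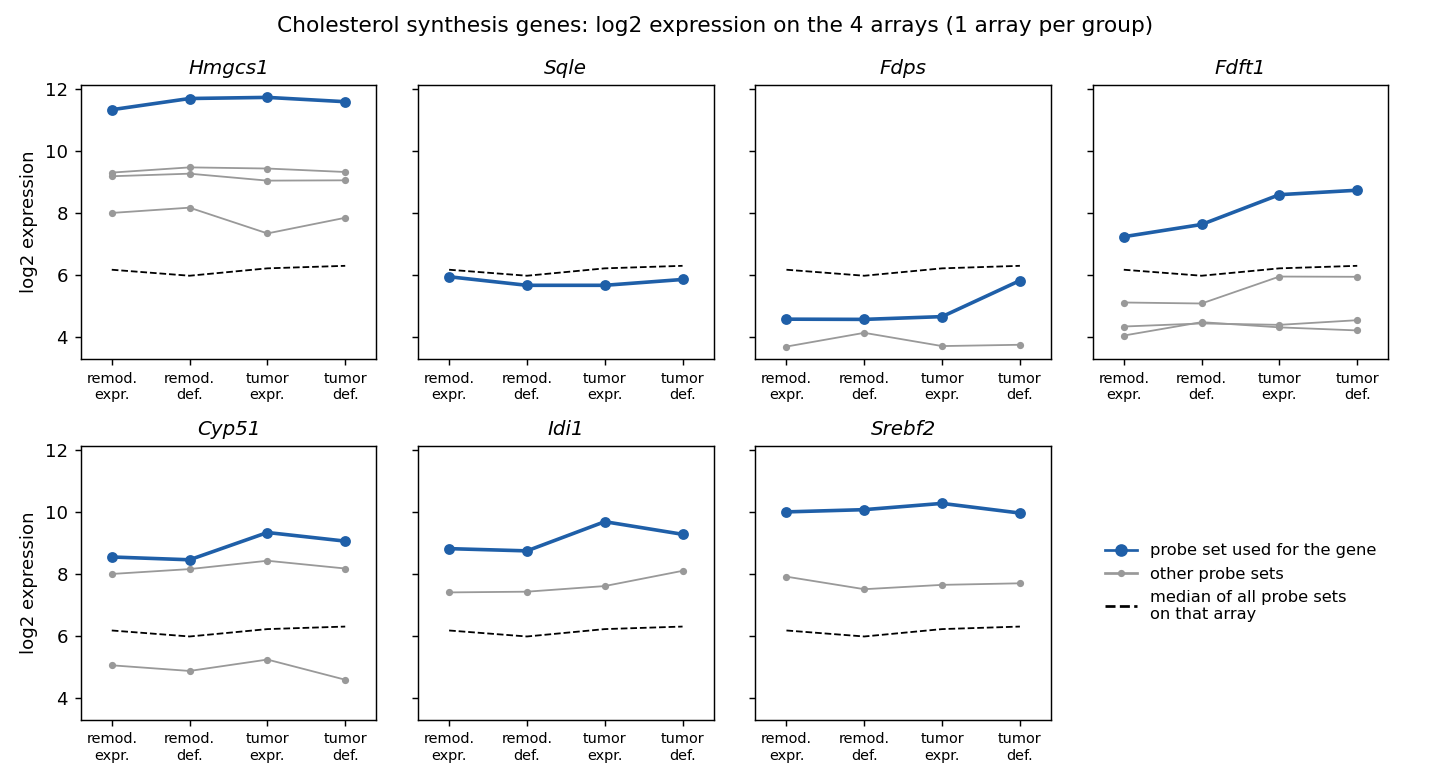
Log2 expression (vertical axis) of every probe set of the 7 measured genes on the 4 arrays (horizontal axis: remodeling or tumor, Ets2-expressing or Ets2-deficient; 1 array per group), with lines joining the values of a probe set. Fdft1 climbs from 7.24 and 7.63 on the remodeling arrays to 8.59 and 8.73 on the tumor arrays, while Sqle and Fdps stay below the dashed array medians.

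Srebf2, the regulator, was nearly level. Its brighter probe set read 9.99 on the remodeling Ets2-expressing array, 10.07 on the remodeling Ets2-deficient array, 10.27 on the tumor Ets2-expressing array and 9.96 on the tumor Ets2-deficient array. No array stood apart, and every neighbouring pair in the order of levels lay closer than the pooled SD. With Ets2 deficiency it differed by -0.31 log2 in tumor and 0.07 in remodeling macrophages. The second Srebf2 probe set (7.91, 7.50, 7.64 and 7.69 in the same order of arrays) gave 0.05 and -0.40, so the probe sets pointed opposite ways in both comparisons.

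Hmgcs1, the synthase that condenses acetyl-CoA units on the way to mevalonate, was bright on every array in all 4 probe sets. The brightest read 11.33, 11.69, 11.73 and 11.59 in that order of arrays. The lowest array was the remodeling Ets2-expressing one, and neighbours in the order of levels again lay closer than the pooled SD. Its Ets2 difference was -0.14 log2 in tumor and 0.36 in remodeling macrophages, the latter above the pooled SD of 0.28 but short of 2-fold. Centring the arrays on their median made it 0.55, centring on hybridization controls 0.56 and quantile normalization 0.37. The median of all genes moved as well, from 0.04 as deposited to 0.23 and 0.24 with the centrings. Measured from that median, the Hmgcs1 difference stayed at 0.32 log2 as deposited and with either centring. All 4 probe sets lay above 0 in the remodeling Ets2 comparison, from 0.08 to 0.36. In the tumor Ets2 comparison they ran from -0.14 to 0.50 with 2 of 4 above 0. Between tumor and remodeling on the Ets2-expressing arrays they ran from -0.66 to 0.40 and split evenly by sign, so neither comparison had a direction shared by all probe sets. Between tumor and remodeling on the Ets2-deficient arrays all 4 lay below 0, from -0.33 to -0.10.

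Idi1, the isomerase that makes the reactive isoprenoid dimethylallyl diphosphate, was higher on both tumor arrays than on both remodeling arrays. Its brighter probe set read 8.81, 8.74, 9.68 and 9.27 in the same order of arrays. The tumor Ets2-expressing array was highest and the remodeling arrays were level, differing by 0.07 log2. Tumor minus remodeling was 0.87 log2 (1.83-fold) with Ets2 expressed and 0.53 (1.45-fold) with Ets2 deficient, both above the pooled SD and both short of 2-fold. The second probe set (7.40, 7.42, 7.60 and 8.09) gave 0.20 and 0.67. Within the tumor arrays the Ets2 difference was -0.41 log2 in the first probe set and 0.49 in the second, so its direction depended on the probe set.

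Fdps, farnesyl diphosphate synthase, supplies the isoprenoid from which squalene is made. Its brighter probe set read 4.58, 4.57, 4.66 and 5.82 in the same order, below the median of every array. The first 3 values were level and the tumor Ets2-deficient array stood above them, by 1.16 log2 over the tumor Ets2-expressing array and 1.25 over the remodeling Ets2-deficient array. These differences were not called because of the low signal, and the second probe set, at 3.70, 4.14, 3.71 and 3.75, gave 0.04 and -0.39 for the same pairs. The second probe set, below the 25th percentile of every array, thus repeated neither difference, and their size and direction are not settled.

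Fdft1 catalyses the joining of farnesyl units into squalene, the step that commits isoprenoids to sterols. Its brightest probe set read 7.24, 7.63, 8.59 and 8.73 in the same order, and the tumor and remodeling arrays did not overlap. Tumor minus remodeling was 1.35 log2 (2.56-fold) with Ets2 expressed and 1.10 log2 (2.15-fold) with Ets2 deficient, and 3.10% and 6.65% of bright genes had a larger difference. A second probe set, below the median on every array (5.12, 5.08, 5.95 and 5.94), gave 0.84 and 0.86 log2. The remaining pair of probe sets read between 4.05 and 4.55, near the 25th percentile of the arrays (4.27 to 4.32), and differed between tumor and remodeling by -0.27 to 0.26 log2. The brightest probe set carries the suffix x_at, which the manufacturer gives to probe sets with probes that also match other sequences, so the 2-fold call rests on 1 probe set of that kind. With the mean of all 4 probe sets the differences were 0.63 and 0.45 log2, short of 2-fold. With the Ets2 label Fdft1 differed by 0.14 log2 in tumor and 0.39 in remodeling macrophages, the latter above the pooled SD.

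Sqle encodes squalene epoxidase, an oxygen-dependent step of the route. Its only probe set read 5.95, 5.67, 5.67 and 5.86, below the median on every array. The arrays lay within 0.28 log2 of each other, and no order between them exceeded the pooled SD. Tumor minus remodeling was -0.28 with Ets2 expressed and 0.19 with Ets2 deficient, and the latter turned to between -0.16 and -0.04 under the 3 other scalings tried (median centring, quantile normalization and centring on the hybridization controls).

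Cyp51, the lanosterol demethylase, opens the last stretch from lanosterol to cholesterol. Its brightest probe set read 8.54, 8.45, 9.33 and 9.05, so that both tumor arrays lay above both remodeling arrays. Tumor minus remodeling was 0.79 log2 (1.73-fold) with Ets2 expressed and 0.60 (1.52-fold) with Ets2 deficient. The second bright probe set (7.99, 8.15, 8.42 and 8.17) gave 0.43 and 0.02, and the remaining dim one 0.19 and -0.28. In tumor macrophages the Ets2 difference was below 0 in all 3 probe sets, at -0.28, -0.25 and -0.65 log2, of which the last exceeds the pooled SD.

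In the tumor Ets2 comparison none of the 7 genes was called (0 of 5 bright), where 2.99% of the 7225 bright genes were called in either direction. At 1.5-fold it was 0 of 5 too, where 15.3% of genes passed. The median difference of the 7 was -0.14 log2, against 0 over all genes. The 5 bright members lay between -0.41 (Idi1) and 0.14 (Fdft1), and 5 of the 7 differences were smaller than the pooled SD, the others being Idi1 and Fdps. In the remodeling Ets2 comparison 0 of 5 bright genes were called as well, where 6.48% of 7095 were called, and 0 of 5 passed 1.5-fold, where 16.3% did. There the median of the 7 was -0.01 against 0.04 over all genes. Differences ran from -0.28 (Sqle) to 0.39 (Fdft1), with Hmgcs1 and Fdft1 above the pooled SD. Those of Fdps, Cyp51 and Idi1, at -0.01, -0.09 and -0.07, changed sign when the arrays were centred on their median or on the hybridization controls.

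The difference between the tumor and the remodeling Ets2 differences, which use no array in common, was under 1 log2 for all 5 bright genes, where 11.4% of 7473 genes reached it in either direction. It was most negative for Hmgcs1 (-0.50 log2) and positive for Sqle (0.46) and Fdps (1.17), both dim. This contrast has no error of its own and was not tested.

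**Figure D2:**
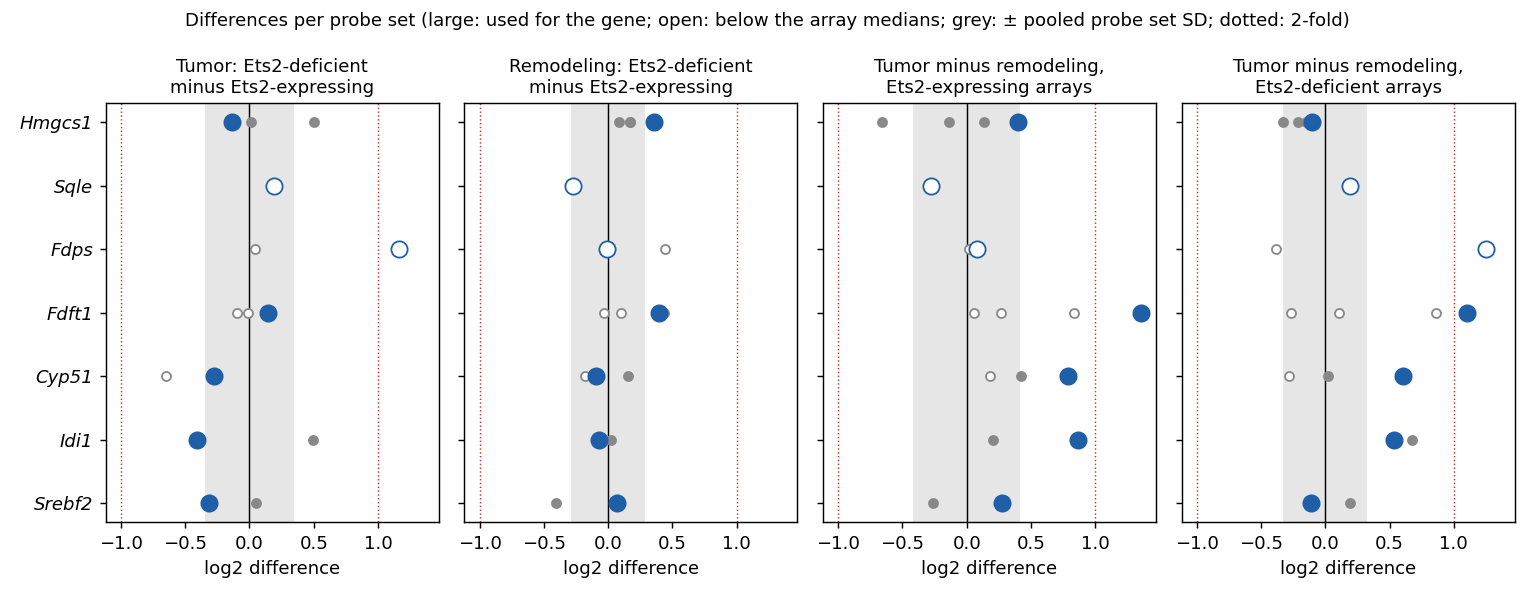
Log2 difference (horizontal axis) of each probe set of the 7 genes in the 4 comparisons; the grey band is ± the pooled probe set SD of that comparison and the dotted lines mark 2-fold. Dim Fdps at 1.16 is the only point past 2-fold in the Ets2 comparisons at left, while Fdft1 at 1.35 and 1.10 is the only filled point past 2-fold, in the comparisons of tumor with remodeling at right.

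Between tumor and remodeling macrophages 1 of 5 bright genes was called on the Ets2-expressing arrays, where 11.4% of 7253 genes were called in either direction, and 1 of 5 on the Ets2-deficient arrays, where 9.22% of 7203 were. The called gene was Fdft1 in both, pairs of arrays that share none. At 1.5-fold 3 of 5 passed on the Ets2-expressing arrays (Fdft1, Idi1 and Cyp51), where 29.8% of genes did, and 2 of 5 on the Ets2-deficient arrays (Fdft1 and Cyp51), where 23.7% did. The median difference of the 7 genes was 0.40 and 0.53 log2, against 0.08 and 0.01 over all genes. With the mean of all probe sets these medians of the 7 fell to 0.05 and 0.19, beside 0.05 and 0.01 over all genes. Idi1, Fdft1 and Cyp51 lay above 0 in both pairs as deposited and after each other scaling tried. Hmgcs1 and Srebf2 lay above 0 on the Ets2-expressing pair (0.40 and 0.27) and below 0 on the Ets2-deficient pair (-0.10 and -0.11). Within the Ets2-deficient pair the values depend on the scaling, since the median of all genes moved from 0.01 to -0.31 log2 with median centring. Fdft1 then differed by 0.78 log2, short of 2-fold.

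Markers of mammary epithelium were higher on both tumor arrays than on the remodeling arrays. Of 15 listed, 3 and 2 were at or above the array median on the remodeling Ets2-expressing and Ets2-deficient arrays, and 14 and 15 on the tumor Ets2-expressing and Ets2-deficient arrays. Their summed level was 9.89, 9.04, 13.48 and 14.37 on the log2 scale in that order. The casein gene Csn3, an epithelial marker, read 7.77, 6.50, 12.42 and 12.96. Macrophage markers were level, with a summed level between 15.90 and 16.00 on all 4 arrays. Fibroblast markers summed to 14.40, 12.58, 13.39 and 13.40. Other marker lists differed too, here as medians of tumor minus remodeling with Ets2 expressed and with Ets2 deficient. These were 0.4 and 0.76 log2 for T and NK cell markers and 0.92 and 0.04 for B cell markers. For mast cell markers they were -1.2 and 0.62, and for neutrophil markers -0.55 and 0.70. The Actb and Gapdh 3' minus 5' differences were larger on both tumor arrays, and that of Tfrc was smaller. The part of these values in the differences of the cholesterol synthesis genes was not tested.

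The rest of the synthesis route was measured for 13 of 18 listed genes, which together with the 6 enzymes above gives 19 enzymes. They include an isoprenoid enzyme on a side branch of the route. On the Ets2-expressing arrays 11 of the 19 were higher and 8 lower in tumor than in remodeling macrophages (median 0.08 log2), and on the Ets2-deficient arrays 16 were higher and 3 lower (median 0.49). Both splits depend on the scaling. The first became 9 higher and 10 lower after quantile normalization and 10 and 9 after either centring. The second became 15 and 4 after quantile normalization, 13 and 6 after centring on hybridization controls and 10 and 9 after median centring. In the mevalonate stretch after Hmgcs1, Pmvk, a kinase, differed by 0.45 and 0.81 log2 and Mvd, a decarboxylase, by 0.01 and 0.56. Lss, lanosterol synthase, which closes the ring after Fdft1 and Sqle, was the other enzyme called in both. It read 5.53, 6.06, 6.75 and 7.06, with tumor minus remodeling at 1.21 and 1.0 log2, the latter at the 2-fold limit and between 0.68 and 0.78 after the 3 other scalings. Its other probe sets were below the median on every array and gave 0.04 and -0.01 with Ets2 expressed, 0.91 and 0.77 with Ets2 deficient. Between the Ets2 labels in tumor macrophages, 13 of the 19 enzymes were higher and 6 lower on the Ets2-deficient array under each scaling. Their median was 0.23 log2 as deposited, against 0 over all genes, and 0.15 to 0.28 under the other scalings. In remodeling macrophages 9 were higher and 8 lower as deposited (median 0), 12 and 7 after quantile normalization and 15 and 4 after either centring. With median centring the enzyme median there was 0.19, against 0.23 over all genes. With centring on hybridization controls it was 0.20 against 0.24, so the enzymes did not exceed the typical gene.

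Of 8 measured enzymes that act after lanosterol beside Cyp51, 2 were higher and 6 lower in tumor on the Ets2-expressing arrays, under each scaling. On the Ets2-deficient arrays 7 were higher and 1 lower as deposited, but 3 and 5 after median centring. Ebp, a sterol isomerase, and Tm7sf2, a sterol reductase, differed by -0.55 and -0.59 log2 there and by 0.28 and 0.57 on the Ets2-deficient arrays. Lbr, which encodes a sterol reductase that is also a nuclear lamin receptor, was lower in both pairs (-0.35 and -0.52). Dhcr7, the reductase of a final step, was higher in both as deposited (0.56 and 0.22), the latter turning to -0.10 with median centring and -0.01 with centring on hybridization controls. Ebp on the Ets2-deficient arrays turned to -0.04 with median centring. Nsdhl, a sterol dehydrogenase, was higher by 0.30 and 0.49. None of the 8 was called.

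**Figure D3:**
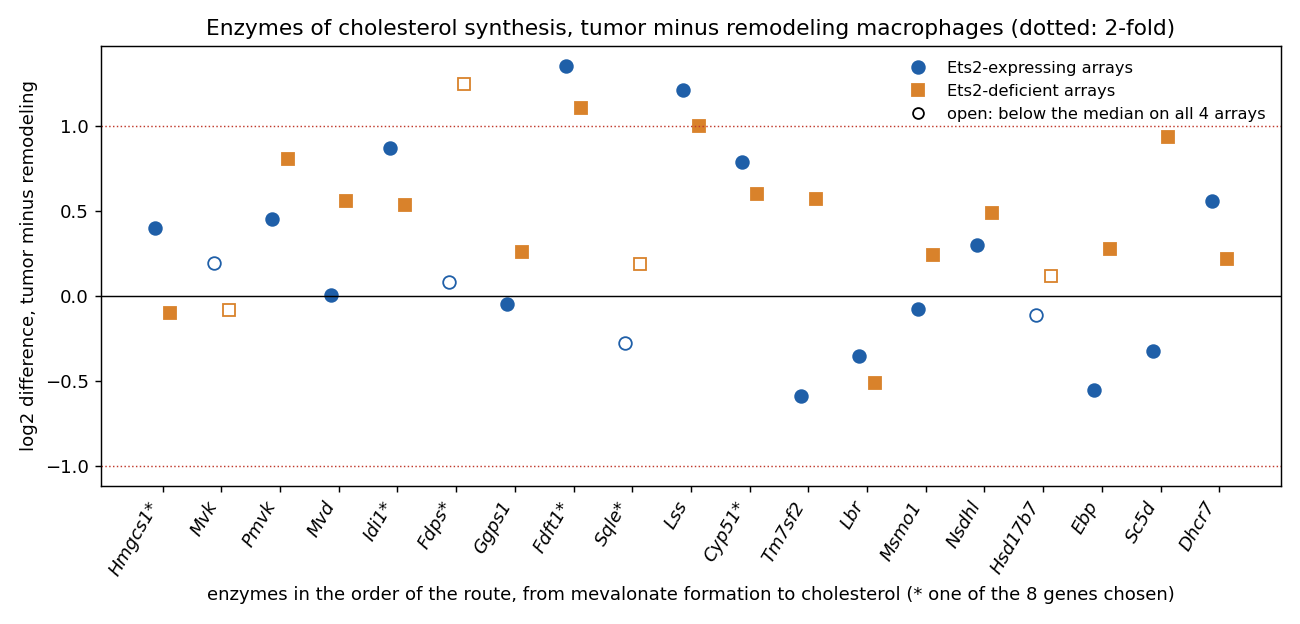
Log2 difference between tumor and remodeling macrophages (vertical axis) for 19 enzymes in the order of the route (horizontal axis), an isoprenoid side-branch enzyme included. Circles are the Ets2-expressing and squares the Ets2-deficient arrays, and open symbols mark genes below the median on all 4 arrays. Fdft1 (1.35 and 1.10) and Lss (1.21 and 1.0) reach the dotted 2-fold line in both pairs, and the other enzymes lie between -0.59 and 1.25.

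Regulators beside Srebf2 were measured for 7 of 11 listed genes. Srebf1, whose SREBP-1 proteins favour fatty acid synthesis genes, was the only one of the 7 called in any comparison as deposited. It was called between tumor and remodeling with Ets2 expressed and with Ets2 deficient, where 11.4% and 9.22% of all bright genes were called. Its only probe set read 7.06, 7.38, 8.72 and 9.42, with no overlap between tumor and remodeling arrays. Tumor minus remodeling was 1.66 log2 with Ets2 expressed and 2.05 log2 with Ets2 deficient, against 0.27 and -0.11 for Srebf2. The Ets2 difference was 0.71 log2 in tumor and 0.32 in remodeling macrophages. Scap, the escort protein of the SREBP precursors, read 8.71, 8.93, 8.77 and 9.12, a range of under 2-fold. Insig2, which retains SCAP in the endoplasmic reticulum, read 7.93, 7.36, 8.27 and 7.32 and was lower on the Ets2-deficient array in both settings, by -0.94 log2 in tumor and -0.58 in remodeling macrophages. In tumor it passed 2-fold after median centring (-1.03) and after quantile normalization (-1.03). Its other 2 bright probe sets gave -0.36 and 0.18 in tumor and 0.18 and 0.06 in remodeling macrophages, so the direction was not shared by its probe sets.

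Genes listed as fatty acid synthesis targets of SREBP had a median tumor minus remodeling difference of 0.65 log2 on the Ets2-deficient arrays. That of the 7 cholesterol genes was 0.53 and that over all genes 0.01. The list takes in genes outside fatty acid synthesis itself, among them Tmem97, whose own value (0.65) is the list median. Of 12 bright genes among the 13 measured, 5 were called on the Ets2-deficient arrays, all higher, where 9.22% of all bright genes were called. They were the malic enzyme gene Me1 (3.52 log2), the desaturase gene Scd2 (2.0), the fatty acid synthase gene Fasn (1.81), the desaturase gene Fads2 (1.5) and the elongase gene Elovl6 (1.33). All 15 epithelial markers were higher past 2-fold in the same comparison, with a median of 4.57 log2, and 2 of 7 adipocyte markers were lower past 2-fold, and the part of either in these values was not tested. Among all called genes of that comparison 82.5% were higher as deposited, 71.6% after quantile normalization, 61.3% after centring on hybridization controls and 50.8% after median centring. On the Ets2-expressing arrays 0 of 12 bright fatty acid genes were called, where 11.4% of all bright genes were, and their list median was 0.48 log2 over 13 genes.

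With the Ets2 label Me1 and Fasn were higher in tumor macrophages, by 1.60 and 1.07 log2, and they were the 2 called among 42 bright pathway genes outside the 7, where 2.99% of all bright genes were called. Fasn fell just short of the limit after median centring (0.99). Me1 read 5.97, 4.89, 6.81 and 8.42, highest on the tumor Ets2-deficient array. Fasn read 7.81, 7.39, 8.13 and 9.20, again with the tumor Ets2-deficient array highest. Epithelial markers were also higher on that array than on the tumor Ets2-expressing array, with 5 of 15 higher past 2-fold and a median difference of 0.89 log2. So were neutrophil markers, with 3 of 9 and a median of 0.98, which is the value of Ltf. Ltf read 5.87, 4.52, 9.53 and 10.51 in the order of arrays, higher on both tumor arrays. By contrast, 2 of 7 adipocyte markers, Fabp4 (-1.48) and Car3 (-1.42), were lower past 2-fold. The part of these in the result was not tested. In remodeling macrophages 2 of 40 bright pathway genes were called, both lower on the Ets2-deficient array, where 6.48% of all bright genes were called. Of all those called, 20.2% were higher as deposited and 39.5% after median centring. These were Vldlr (-2.68 log2), a lipoprotein receptor, and Elovl6 (-1.13), which lay between -0.94 and -0.91 after the 3 other scalings. The other Elovl6 probe set, below the median on every array, gave -0.175.

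Vldlr was the uptake gene with the widest spread. Its brightest probe set read 9.45, 6.77, 8.06 and 8.28, and its other 3 probe sets were also highest on the remodeling Ets2-expressing array. Tumor minus remodeling was -1.38 log2 with Ets2 expressed and 1.51 with Ets2 deficient. Fibroblast markers, with 9 of 10 lower past 2-fold on the remodeling Ets2-deficient array, and mast cell markers, with 5 of 7, shared that direction, and their part in the Vldlr values was not tested. The other 11 measured genes of uptake, transport and esterification were called in no comparison, among them Npc1 and Npc2, which export cholesterol from lysosomes, and Lipa, the lysosomal lipase.

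**Figure D4:**
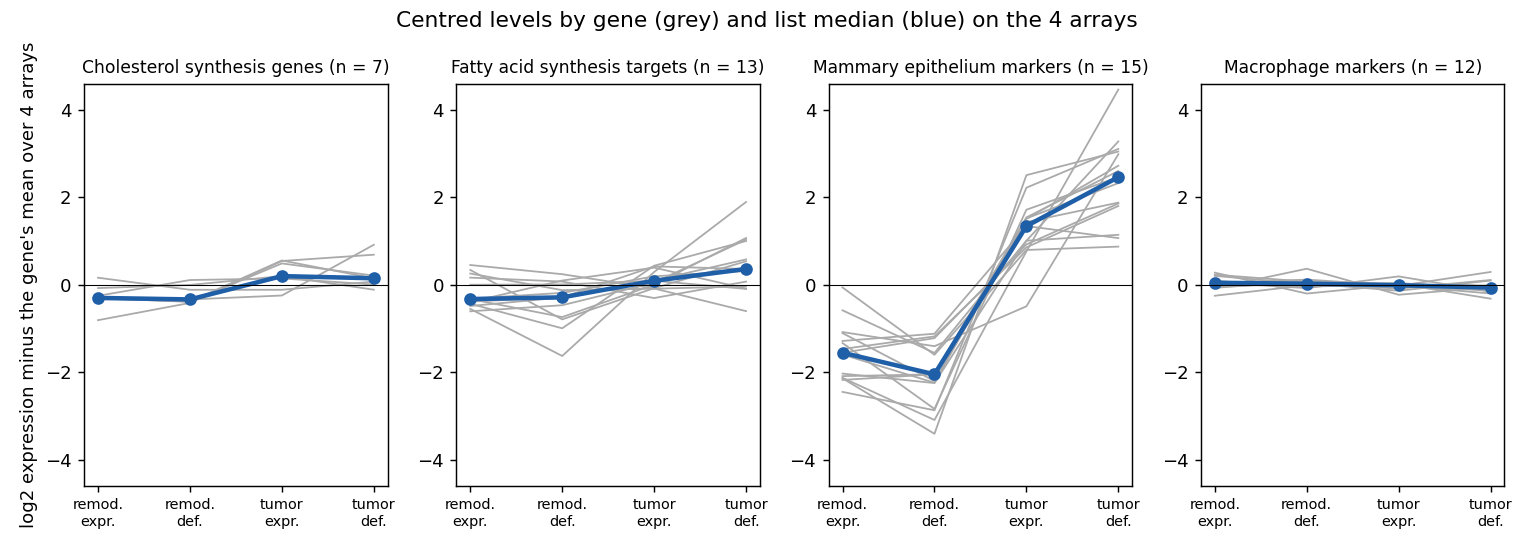
Log2 expression minus each gene's own mean over the 4 arrays (vertical axis) on the 4 arrays (horizontal axis), with list medians in blue. Grey lines are the 7 cholesterol synthesis genes, 13 genes listed as fatty acid synthesis targets of SREBP, 15 epithelial markers and 12 macrophage markers. Centred medians of the cholesterol genes run from -0.34 to 0.20, those of the fatty acid genes from -0.33 to 0.36 and those of the epithelial markers from -2.05 to 2.46.

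The mean profile of the 7 genes, each centred on its own mean over the 4 arrays, was -0.28, -0.22, 0.22 and 0.27 log2 in the order of groups given at the start. The 5 genes outside the 7 that lay nearest to it, by root mean square distance over 4 arrays among 7468 genes bright on an array, were Timm22 of the mitochondrial import machinery (0.011 log2), the pyruvate kinase gene Pkm (0.016), the endocytic adaptor gene Epn1 (0.018), the enoyl-CoA reductase gene Tecr (0.020) and the arginine methyltransferase gene Prmt2 (0.023). In all 283 genes lay within 0.1 log2 of the profile. The 7 genes themselves lay farther from their own mean, between 0.16 (Cyp51) and 0.40 (Fdps), so the mean profile described no single gene among them closely. Dim Fdps had the highest centred value on the tumor Ets2-deficient array (0.91), against -0.25 on the tumor Ets2-expressing array. The order of the tumor arrays in the mean profile leans on it. Medians of the 7 centred values had the other order, 0.20 on the tumor Ets2-expressing and 0.15 on the tumor Ets2-deficient array.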

How the data were processed

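RNA from sorted macrophages was measured on 4 arrays after amplification from about 10 ng, per the labels. The deposited values are log2 expression per probe set; GCOS and RMA are named in the submitters' processing notes, without versions or roles. Values were used as deposited. Probe sets naming exactly 1 gene were kept, without controls (20380 of 22690), and the one with the highest mean stood for its gene. Of these, 20351 matched a current gene by Entrez identifier. Positions of probe sets are not given, as no build is named for the array.

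With 1 array per group each comparison is a log2 difference, called at 2-fold with the brighter array at or above its median. The genes and lists were chosen with earlier results of these data known. The text names the 7 measured genes, pathway genes past 2-fold in any comparison, Srebf1, Scap and Insig2, and the 5 genes nearest in profile. Others (Pmvk, Mvd, Ebp, Tm7sf2, Lbr, Dhcr7, Nsdhl, Tmem97, Csn3, Fabp4, Car3, Ltf, Npc1, Npc2 and Lipa) were chosen after their values were seen. Of 58 listed pathway genes 45 were measured. The step that makes the calls was tested on simulated data with set differences, which checks the code and not the calls. Python 3.11.15 with pandas 2.3.3 was used.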

Additional observations from a re-analysis of the deposited data

How the results depend on the processing

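No paired analysis was possible because each group held 1 array, and for the same reason no array could be left out. Of 140 recomputed differences of single genes among the 7, 110 moved by less than the pooled probe set SD and the others by more. The 110 include those of Sqle with the mean of all or the lowest-mean probe set, which could not move because Sqle has 1 probe set. The sign turned in 30 of the 140, of which 13 were with the lowest-mean probe set. Among the called differences, that of Fdft1 between tumor and remodeling on the Ets2-deficient arrays turned, to -0.27 with that probe set. So did uncalled ones, such as Fdps (1.25 to -0.39) and Cyp51 (0.60 to -0.28) in the same pair, Hmgcs1 on the Ets2-expressing pair (0.40 to -0.66) and Idi1 in the tumor Ets2 comparison (-0.41 to 0.49). Without the brightness filter 1 of the 7 genes passed in the tumor Ets2 comparison, 2 in tumor against remodeling on the Ets2-deficient arrays, and 1 in the difference of the Ets2 differences, where dim Fdps enters. The call of Fdft1 was lost (0 genes) in both comparisons of tumor with remodeling with the 75th percentile filter, the mean of all probe sets or the lowest-mean probe set, and on the Ets2-deficient arrays also with median centring or centring on hybridization controls. At 1.5-fold the 7 genes gave 3 calls between tumor and remodeling with Ets2 expressed and 2 with it deficient. Their median difference on the Ets2-deficient arrays moved from 0.53 to 0.21 with median centring, 0.19 with the mean of all probe sets and -0.27 with the lowest-mean probe set, and on the Ets2-expressing arrays from 0.40 to 0.05 and 0.02 with the latter pair. Other pathway genes called in the tumor Ets2, remodeling Ets2, Ets2-expressing and Ets2-deficient comparisons numbered 2, 2, 3 and 8 among 42, 40, 41 and 42 bright ones. These became 1, 1, 1 and 4 with the 75th percentile filter and 9, 5, 11 and 15 at 1.5-fold. The shares called over all bright genes were 2.99, 6.48, 11.4 and 9.22% in the same order. They were 1.57, 3.9, 6.96 and 5.28% with the 75th percentile filter and 15.3, 16.3, 29.8 and 23.7% at 1.5-fold. In the remodeling Ets2 comparison 1 other pathway gene was called after median centring, quantile normalization or centring on hybridization controls. Genes below the array median, such as Sqle and Fdps, are limited by their signal.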
